A study of Oryzias latipes with 20 samples.

Results

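Day 7 was set against day 0 in medaka (Oryzias latipes) brain, with the circadian clock genes as the main subject. The members are the 3 libraries labelled day 0 and the 3 labelled day 7, 6 of the 20 libraries of the study, chosen by their labelled day alone. Each library came from a tissue block that joined hypothalamus and pituitary with the ventral telencephalon, from fish held under a constant photoperiod. The days count from a change to conditions that the labels abbreviate as LW, and the other 14 libraries came from days 30, 60, 90, 120 and 150, with 3 each except 2 at day 60. All groups were described as held under a constant photoperiod, but LW is not spelled out. Whether the light differed before that change is not known here. The sources used here give no strain, age, sex or number of fish per library. They give no hour of sampling either. A clock read at another hour and a change over the 7 days therefore cannot be told apart, and clock phase itself was not measured.

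The vertebrate clock is a loop of transcription. CLOCK or NPAS2 pairs with ARNTL proteins (also called BMAL) and switches on the period and cryptochrome genes, whose proteins then block that pair. The same pair switches on the NR1D genes (REV-ERB), whose products repress ARNTL, while ROR receptors act at the same sites and activate it. Output factors such as TEF and HLF activate, and NFIL3 represses, at another shared site called the D-box. In fish, many tissues hold clocks that light can set directly.

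Levels are FPKM, a fragment count per transcript length and library size, and changes are day 7 minus day 0 on log2(FPKM + 1). The limma test ran on the 15947 genes whose mean over the 20 libraries reached 1 FPKM, with p-values adjusted by the Benjamini-Hochberg method and called under 0.05. Total FPKM was 385476 to 390005 in the day 0 libraries and 374770 to 378027 in those of day 7, the lowest of the 20 libraries. The main test did not rescale these totals. With all libraries rescaled to the same total, the median change of all tested genes was 0.038, against 0.002 without. The read depth is unknown. Spearman correlations across genes were 0.967 to 0.970 within day 0, 0.968 to 0.969 within day 7 and 0.965 to 0.968 between the days. The labels name separate samples and not separate fish, so the p-values reflect only how these samples spread, which may be technical.

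Of the genes tested, 10 were called, or 0.0627%: 9 rose (0.0564%) and 1 fell (0.00627%). They include the clock repressor NR1D1, the clock activator ARNTL2, a gene with the orthology of the output repressor NFIL3, and 3 genes of chromatin regulation. At an unadjusted p under 0.05 there were 716 higher genes (4.49%) and 707 lower genes (4.43%). The change of all tested genes had a median of 0.002. Only 2 of the 10 carry a gene symbol, and the other 8 are locus numbers whose names are taken from the protein descriptions and orthology of the deposited table.

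**Figure D1:**
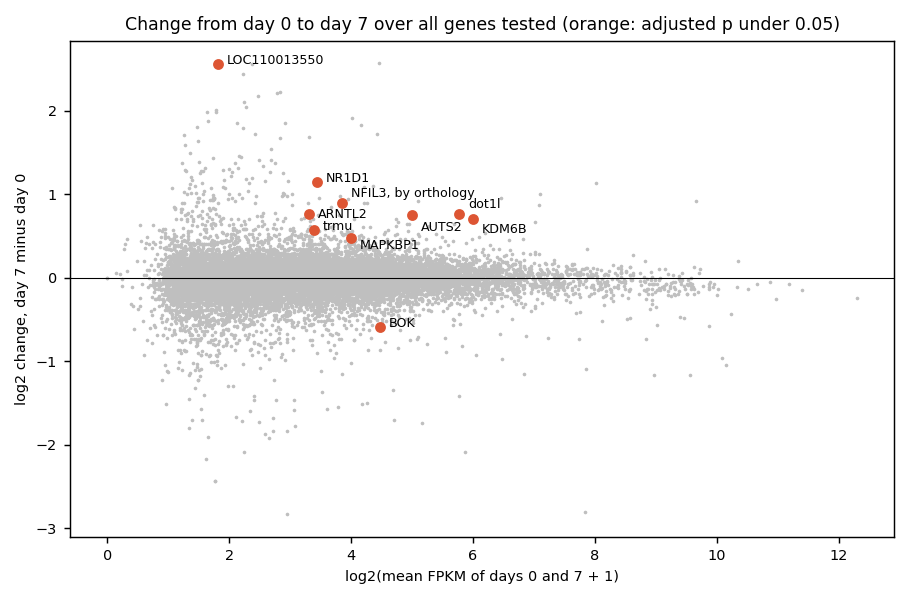
Change from day 0 to day 7 (vertical, difference of log2(FPKM + 1)) against mean level of the 2 days (horizontal, log2) for the 15947 genes tested, 1 point per gene. Orange points are the 10 called genes, 9 above and 1 below 0, and many grey points lie as far from 0.

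The called clock genes were a repressor and an activator of the core loop and an NFIL3 gene of its output. NR1D1 (LOC101174341), the repressor of ARNTL transcription, had 5.02, 6.12 and 5.98 FPKM at day 0 and 14.99, 11.66 and 15.29 at day 7. All 3 day 7 libraries lay above all 3 of day 0, and also above the other 14, which ran from 4.94 to 11.19 with a median of 6.985. NR1D1 rose by 1.15 (SE 0.14, adjusted p = 0.00436). ARNTL2 (LOC101174183), a partner of CLOCK, had 5.46, 7.10 and 6.5 FPKM at day 0 and 12.17, 10.50 and 11.60 at day 7. Here too no other library reached the lowest day 7 value, the days from 30 to 150 running from 5.10 to 9.79. ARNTL2 rose by 0.76 (SE 0.13, adjusted p = 0.0426), close to the threshold. Its name follows the protein description, whereas its orthology is ARNTL-like protein 1, as for the ARNTL gene LOC101159313. LOC101161642 has an uncharacterized protein description, but the orthology column of the deposited table gives it as NFIL3, the D-box repressor. It had 8.61, 9.51 and 9.18 FPKM at day 0 and 17.13, 17.71 and 18.53 at day 7. No other library exceeded 15.32, and it rose by 0.90 (SE 0.13, adjusted p = 0.00918). The day with the next highest mean after day 7 was day 150 for LOC101161642 (14.23 FPKM) and for NR1D1 (9.887). For ARNTL2 it was day 90 (8.1).

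The called chromatin genes formed the next group. AUTS2 (LOC101164758), whose mammalian product joins a Polycomb complex, had 21.85, 22.80 and 23.51 FPKM at day 0 and 37.26, 43.17 and 36.68 at day 7. The day 7 libraries lay above all other libraries, with day 7 replicate 2 the highest. AUTS2 rose by 0.75 (SE 0.09, adjusted p = 0.00436), whereas the related gene auts2 had 22.09 to 23.17 FPKM at day 0 and 25.24 to 27.88 at day 7, a difference of 0.24 (adjusted p = 0.499) that was not called. The difference between these related genes was not tested. The histone H3 lysine 79 methyltransferase gene dot1l had 39.62, 38.46 and 39.44 FPKM at day 0 and 60.25, 74.91 and 68.15 at day 7. Again the days did not overlap, and the 14 later libraries reached 52.29 at most. It rose by 0.77 (SE 0.10, adjusted p = 0.00819). KDM6B (LOC101164833), a demethylase of histone H3 lysine 27, had 49.27, 46.34 and 46.58 FPKM at day 0 and 70.78, 91.89 and 73.69 at day 7. As for dot1l and AUTS2, day 7 replicate 2 was the highest of all 20 libraries. KDM6B rose by 0.71 (SE 0.12, adjusted p = 0.0426). A further gene described as KDM6B, LOC101160692, was tested and not called.

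Of the remaining called genes, LOC110013550 has an uncharacterized protein description and the orthology of a G2/M phase-specific ubiquitin ligase. It was listed at 0, 0 and 0.04 FPKM at day 0 and at 4.32, 6.04 and 4.67 at day 7 (adjusted p = 0.0314). Its later libraries had a median of 0.055, but day 60 replicate 2 stood at 4.64, so its presence was not limited to day 7, and no fold is given against a group at 0.

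In the other 3 called genes day 7 did not lie outside all other libraries. The gene trmu, for a mitochondrial tRNA-modifying enzyme, had 7.69, 7.53 and 7.11 FPKM at day 0 and 12.05, 10.45 and 12.15 at day 7. Day 7 lay inside the later range of 8.72 to 13.07, and day 0 lay below it, with a rise of 0.57 (SE 0.09, adjusted p = 0.0314). MAPKBP1 (LOC105356884), a scaffold that binds a mitogen-activated protein kinase, had 11.46, 12.81 and 12.82 FPKM at day 0 and 18.14, 16.74 and 18.05 at day 7, against 13.18 to 19.10 later, and rose by 0.48 (SE 0.08, adjusted p = 0.0415). The lower gene was BOK (LOC101160592), a Bcl-2 family gene linked to cell death, with 27.61, 25.82 and 23.70 FPKM at day 0 and 15.56, 17.13 and 17.59 at day 7. Its later libraries ran from 17.40 to 25.42, with 2 of the day 0 values above and 2 of the day 7 values below that range, and it fell by 0.59 (SE 0.10, adjusted p = 0.0314).

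**Figure D2:**
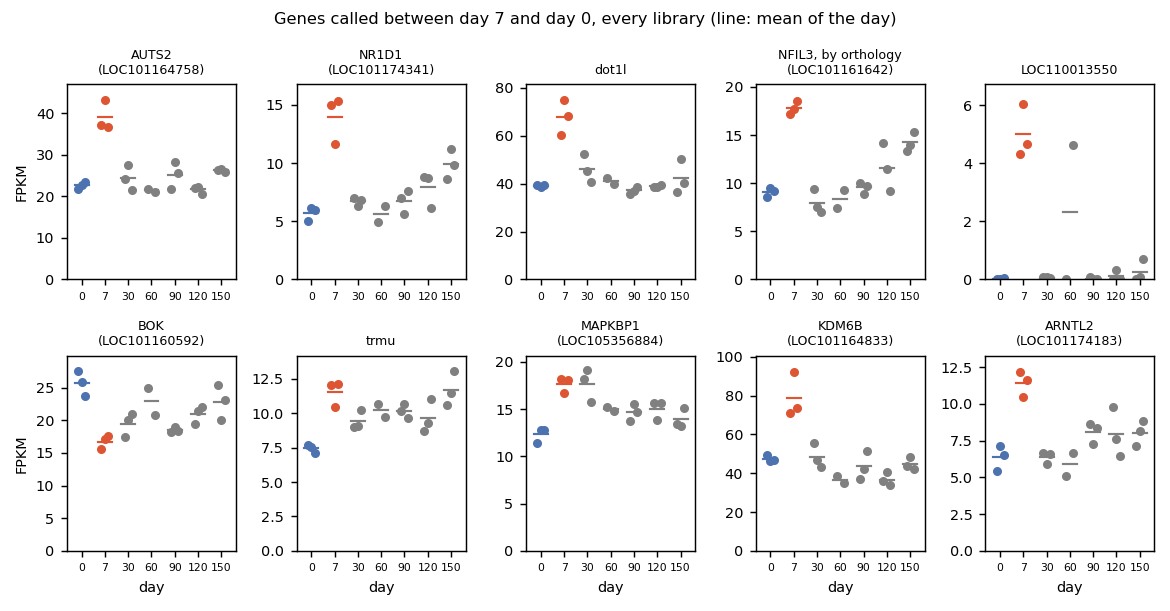
FPKM (vertical) of the 10 called genes by day (horizontal), 1 point per library, with a line at the mean of the day; blue is day 0, orange day 7 and grey the later days. NR1D1, ARNTL2, AUTS2, dot1l, KDM6B and LOC101161642 are higher in the 3 day 7 libraries than in all 17 others, whereas trmu and MAPKBP1 are lowest at day 0.

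So 6 of the 10 called genes lay above all 17 other libraries at day 7, a pattern that 61 of all tested genes (0.383%) showed, and 49 (0.307%) lay below all. The called genes were picked by these same day 7 values, so their share and that of all genes are not like for like. The number called depended on single libraries. It was 4, 2 and 2 when day 0 replicates 1, 2 and 3 were left out in turn, and 5, 6 and 1 for day 7 replicates 1, 2 and 3. Leaving out day 90 replicate 2 gave 4 calls, and leaving out day 150 replicate 2 gave 5. Over 20 runs with 1 library left out, AUTS2 was called in 20, NR1D1 in 19, dot1l in 17, LOC101161642 in 16, trmu and BOK in 13, LOC110013550 in 12, KDM6B and MAPKBP1 in 5 and ARNTL2 in 4.

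Across the clock, 51 genes of 6 lists were matched and 50 were tested. NR1D1, ARNTL2 and the NFIL3 gene LOC101161642 were called higher and none lower, 17 of the 50 had a positive and 33 a negative difference, and over all genes 50.6% were positive. At an unadjusted p under 0.05, 9 were higher and 14 lower, against 4.49% and 4.43% of all genes. The 3 values of each day did not overlap in 27, with 11 higher and 16 lower at day 7, where 8.16% of all tested genes were higher and 8.24% lower without overlap. The lists were written with earlier results of these data known, and LOC101161642 was added by its orthology after its call was seen, so these counts are a description.

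All 5 tested activator genes had a positive difference, with a median of 0.19. ARNTL (LOC101159313), the related partner of CLOCK, had 16.29, 19.46 and 17.73 FPKM at day 0 and 22.76, 21.23 and 25.06 at day 7. The days did not overlap, and the difference of 0.35 (SE 0.09, adjusted p = 0.204) was not called. NPAS2 (LOC101172430) stood at 7.61, 8.02 and 8.01 FPKM against 8.57, 8.08 and 10.29, a difference of 0.16, and the clock gene itself at 6.31, 7.53 and 7.47 against 10.08, 7.45 and 7.39, with 1 high library at day 7. The other CLOCK gene, LOC101165450, differed by 0.12. A further ARNTL2 gene, LOC101175041, was under the mean of 1 FPKM and was not tested.

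The 9 nuclear receptors of the clock split by gene, with 4 positive and 5 negative differences and a median of -0.11. The other gene described as NR1D1 (LOC101173939) lay much lower than the called one, with 1.67, 1.54 and 1.57 FPKM at day 0 and 3.31, 2.02 and 3.69 at day 7. It differed by 0.60 without overlap (SE 0.17, adjusted p = 0.239). The NR1D2 genes stood the other way. LOC101163230 had 32.89, 27.35 and 31.73 FPKM at day 0 and 21.79, 23.87 and 20.59 at day 7 (difference -0.45, adjusted p = 0.157). LOC101156434 had 19.59, 12.20 and 15.47 against 7.15, 9.98 and 8.41 (difference -0.80, adjusted p = 0.204). In each NR1D2 gene all day 7 values were under all day 0 values. Of the ROR genes, the RORB gene LOC101164545 had 3.49, 4.62 and 4.57 FPKM against 6.16, 6.15 and 6.20 (difference 0.46, adjusted p = 0.189), with day 7 above day 0 throughout. The RORA gene LOC101172927 had 4.76, 4.94 and 3.40 against 3.07, 2.89 and 2.98 (difference -0.42, adjusted p = 0.627), below all 17 other libraries. In the other ROR genes the days overlapped. The more abundant ROR-beta-like gene LOC101170052 differed by 0.33 (adjusted p = 0.492) and rora by -0.13 (adjusted p = 0.731). The gene with the symbol rorb had 2.73, 2.85 and 2.46 FPKM against 2.43, 2.21 and 2.60.

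Of the 10 period and cryptochrome genes, 9 had a negative difference, the median was -0.36, and 5 were lower at an unadjusted p under 0.05, where 4.43% of all genes were. None was called. The gene per1 had 15.21, 12.93 and 13.48 FPKM at day 0 and 8.0, 9.98 and 7.88 at day 7, and LOC101159817, which the deposited description calls period 2 and the orthology period 3, had 57.08, 54.17 and 67.06 against 27.51, 41.64 and 27.17. In each the days did not overlap, and day 7 replicate 2 was the day 7 library nearest to day 0. The differences were -0.63 (SE 0.17, adjusted p = 0.212) for per1 and -0.89 (SE 0.21, adjusted p = 0.159) for LOC101159817. The cryptochrome-1-like gene LOC101160902 had 6.44, 5.49 and 5.69 FPKM against 3.54, 4.19 and 3.94 (difference -0.49, adjusted p = 0.175). LOC101174986, described as cryptochrome-1, had 3.07, 2.60 and 2.23 against 1.77, 1.71 and 1.08 (difference -0.53, adjusted p = 0.204). These likewise did not overlap between the days. The most abundant cryptochrome genes did overlap. LOC101167667 had day means of 50.98 and 48.48 FPKM (difference -0.07, adjusted p = 0.865), and LOC101164536 had 49.93 and 45.27 (difference -0.11, adjusted p = 0.919). The period 2 gene LOC101161338 also overlapped, with a difference of -0.03. The gene with the symbol per2 did not, with 12.66, 12.3 and 11.34 FPKM against 10.77, 9.4 and 10.58 (difference -0.22, adjusted p = 0.684). CRY2 (LOC101173389) was the only member on the positive side.

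The output factors had a median of -0.18 over 13 genes, with 9 negative, 6 of them at an unadjusted p under 0.05. Over all genes 49.4% were negative and 4.43% were lower at that p. The 4 NFIL3 genes did not stand on one side. Beside the called LOC101161642, NFIL3 (LOC101175377) had 7.77, 11.56 and 9.60 FPKM at day 0 and 18.80, 18.22 and 20.57 at day 7. These day 7 values were above all 17 other libraries, the highest of which had 18.17, and the difference of 0.94 (SE 0.18) had an adjusted p of 0.0875. The gene with the symbol nfil3 stood at 4.62, 4.78 and 4.56 FPKM against 5.64, 5.2 and 5.33 (difference 0.18, adjusted p = 0.771). The NFIL3-like gene LOC101161892 stood opposite, with 21.08, 18.24 and 17.97 FPKM against 13.88, 13.40 and 16.98 (difference -0.35, adjusted p = 0.293). Of the D-box activators, TEF (LOC101172818) had 42.05, 37.65 and 37.07 FPKM against 27.44, 31.66 and 26.48 without overlap (difference -0.44, adjusted p = 0.431). The most abundant TEF gene, LOC101164258, had 88.99, 79.94 and 81.74 against 68.71, 76.63 and 75.58, also without overlap. A further TEF gene, LOC101159928, had 18.89, 16.09 and 19.84 against 15.62, 14.2 and 16.46, with overlap. HLF (LOC101163688) had 15.72, 13.96 and 16.49 against 11.50, 14.09 and 12.91 (difference -0.25, adjusted p = 0.584). The more abundant gene with the symbol hlf had 50.67, 56.46 and 46.94 against 60.23, 46.53 and 55.66, with overlap and a difference of 0.07 (adjusted p = 0.904) that was -0.01 without day 7 replicate 1. CIART (LOC101172421), a repressor of the CLOCK and ARNTL pair, had 4.49, 3.54 and 4.66 against 2.87, 3.16 and 2.97 (difference -0.38, adjusted p = 0.536). The other genes with the CIART description overlapped between the days. The most abundant, LOC101174020, had 12.48, 14.62 and 12.31 against 11.49, 13.93 and 11.92. LOC101157319 had 3.19, 3.02 and 3.59 against 2.64, 3.06 and 2.61.

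The clock kinases and ubiquitin ligases stood near the middle, with a median of -0.07 over 7 genes. The widest difference among them was in csnk1e, a kinase that acts on period proteins, at 34.67, 35.82 and 39.94 FPKM against 27.02, 35.07 and 20.34, where the days overlapped. All 6 genes of the light-induced repair list had a negative difference, with a median of -0.18. Its member lonrf1 is described as a LON peptidase N-terminal domain and RING finger protein and not as a repair enzyme. This gene, whose zebrafish counterpart responds to light, had 19.86, 19.71 and 18.47 FPKM against 15.36, 14.18 and 12.89 (difference -0.43, adjusted p = 0.121).

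**Figure D3:**
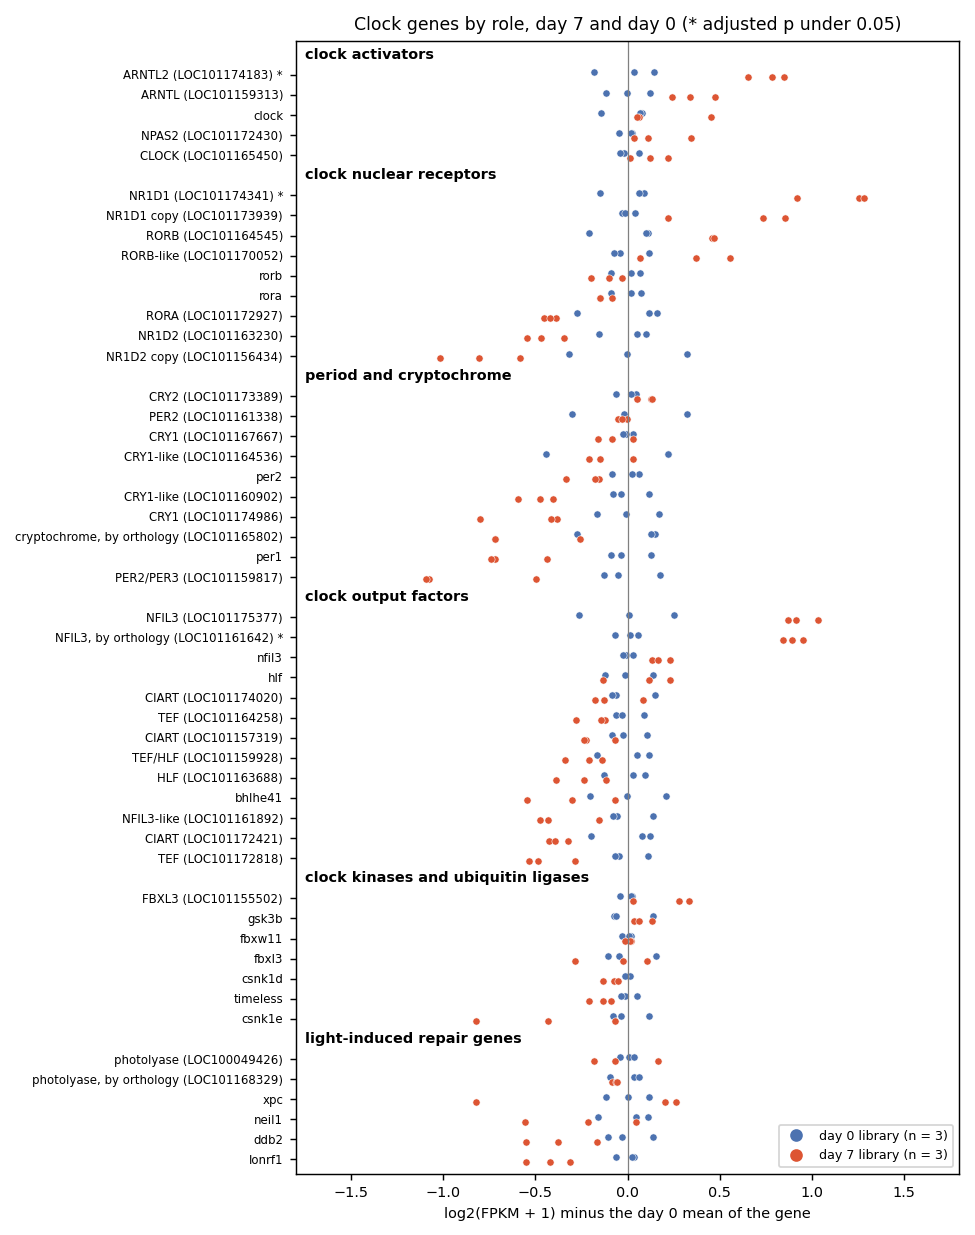
Clock genes by role, with log2(FPKM + 1) of each library minus the gene's day 0 mean (horizontal); blue points are the 3 day 0 libraries, orange the 3 day 7 libraries, and an asterisk marks the 3 called genes. Activators sit to the right of 0 at day 7, most period and cryptochrome genes to the left, and the NR1D1 genes opposite to the NR1D2 genes.

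Histone-modifying genes were also examined as lists, whose counts include the called dot1l and KDM6B. Against 50.6% of all genes, 33 of 45 tested methyltransferase genes had a positive difference (median 0.06). Of 27 genes on the demethylase list 20 did (median 0.05). At an unadjusted p under 0.05, 8 and 6 of them were higher, against 4.49% of all genes. The gene jarid2, whose product is a partner of the Polycomb complex that methylates histone H3 lysine 27, had 158.11, 130.95 and 199.91 FPKM at day 0 and 328.83, 413.76 and 319.50 at day 7. Every day 7 library lay above all 17 others, but day 0 itself spread widely, and the difference of 1.13 (SE 0.31, adjusted p = 0.217) was not called. The demethylase gene kdm7a had 77.38, 118.84 and 86.43 FPKM against 143.35, 231.03 and 148.92 (difference 0.87, adjusted p = 0.201), also above all others at day 7. The 27 genes of the demethylase list include jarid2, although its product is named above as a partner of a methylating complex. Their summed level was 648.23 to 694.76 FPKM at day 0 and 919.72 to 1099.31 at day 7. Most of that difference lay in jarid2 and kdm7a, whose sum was 235.49 to 286.34 against 468.42 to 644.79. The other 25 genes summed to 406.56 to 412.74 against 451.3 to 454.52, with day means of 409.2 and 453.0. These 25 include the called KDM6B gene LOC101164833, which alone had day means of 47.4 and 78.79 FPKM.

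A list of Polycomb group genes was added after the values were seen, so its counts only describe. It had 32 tested genes, 25 with a positive difference (median 0.12), 8 of them at an unadjusted p under 0.05 and AUTS2 alone called. Over all genes 50.6% were positive and 4.49% were higher at that p. The Polycomb list shares jarid2 with the demethylase list, and ezh1 and ezh2 with the methyltransferase list, so it is not separate from them. The gene rybp, for a subunit of Polycomb complexes, had 21.92, 21.32 and 24.42 FPKM at day 0 and 42.90, 50.30 and 38.23 at day 7, above all 17 other libraries (difference 0.92, SE 0.19, adjusted p = 0.121). SUZ12 (LOC101158611), a core subunit of the methylating complex, had 97.26, 52.44 and 133.38 FPKM against 173.75, 204.41 and 154.76 (difference 1.0, adjusted p = 0.349). PHC1 (LOC101173875) had 8.49, 9.09 and 8.16 against 11, 10.81 and 10.94 (difference 0.32, adjusted p = 0.145). Related genes with the symbols suz12 and phc1 were also tested and not called. In rybp, SUZ12, jarid2 and kdm7a, day 7 replicate 2 was again the highest library, as in dot1l, KDM6B and AUTS2.

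**Figure D4:**
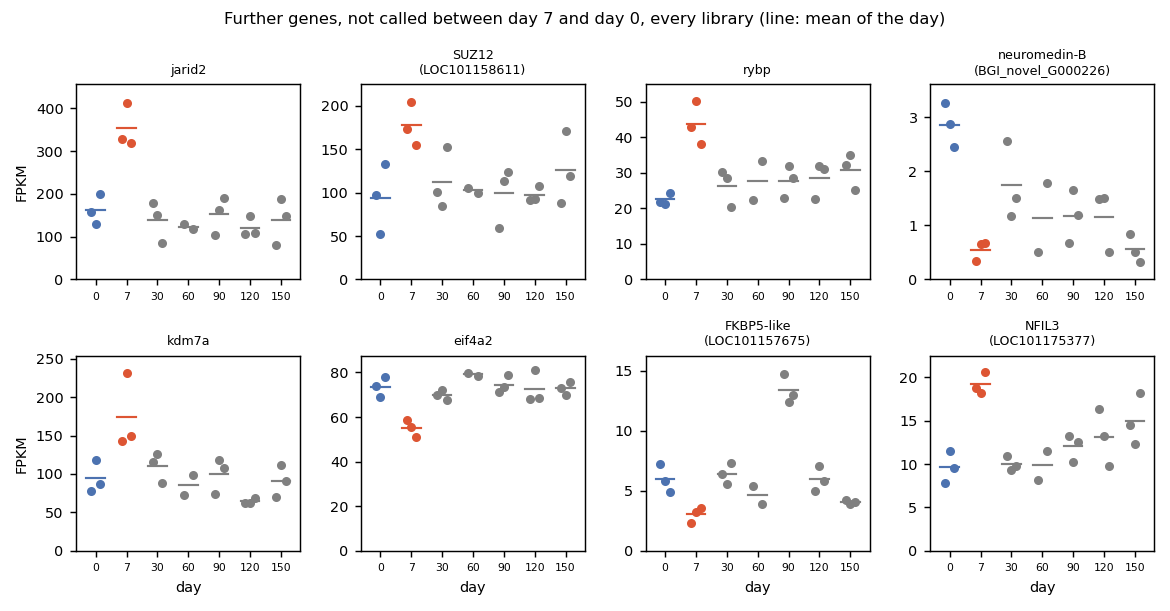
FPKM (vertical) of 8 genes that were not called between day 7 and day 0, by day (horizontal), 1 point per library, with a line at the mean of the day; blue is day 0, orange day 7 and grey the later days. The day 7 libraries of jarid2, kdm7a, rybp and NFIL3 are above, and those of eif4a2 and the FKBP5-like gene below, all 17 other libraries.

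No chaperone gene was called, but 30 of the 33 tested heat shock and chaperone genes had a negative difference, against 49.4% of all genes, with a median of -0.13. At an unadjusted p under 0.05, 12 were lower, against 4.43% of all genes, and 0 higher. Without overlap 12 were lower, against 8.24% of all genes, and 0 higher. HSC70 (LOC100125490), a constitutive chaperone of the cytosol, had 63.81, 47.00 and 61.03 FPKM at day 0 and 34.52, 35.11 and 32.94 at day 7 (difference -0.72, SE 0.15, adjusted p = 0.145). The DNAJB1-like gene LOC101163253, a co-chaperone of HSP70, had 12.33, 11.48 and 16.16 against 8.0, 7.20 and 8.16 (difference -0.69, adjusted p = 0.145), and chordc1, a co-chaperone of HSP90, had 18.89, 19.14 and 16.26 against 13.92, 13.25 and 12.10 (difference -0.44, adjusted p = 0.204). These co-chaperone genes lay below all 17 other libraries at day 7. The collagen chaperone gene serpinh1 had 22.35, 15.26 and 21.73 FPKM against 12.38, 8.92 and 12.66 (difference -0.75, adjusted p = 0.239). HSP90-alpha (LOC101169506) had 125.08, 80.76 and 112.65 against 78.97, 54.64 and 64.15 (difference -0.67, adjusted p = 0.302). In each gene named here the days did not overlap, and in HSC70, serpinh1 and HSP90-alpha day 0 replicate 2 was the lowest of day 0.

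Of 15 glucocorticoid-responsive genes 10 had a negative difference (median -0.15), against 49.4% of all genes, and none was called. At an unadjusted p under 0.05, 6 were lower, against 4.43% of all genes, and 0 higher. The FKBP5-like gene LOC101157675, a co-chaperone of the glucocorticoid receptor, had 7.27, 5.86 and 4.87 FPKM at day 0 and 2.33, 3.25 and 3.57 at day 7. These were the 3 lowest of all libraries, and the difference of -0.79 (SE 0.15) had an adjusted p of 0.0947. SGK1 (LOC101162537), a kinase induced by glucocorticoids, had 27.50, 31.94 and 28.42 FPKM against 20.28, 21.11 and 24.60 (difference -0.40, adjusted p = 0.201). The transcription factor gene zbtb16 had 2.44, 2.92 and 2.37 against 1.64, 1.47 and 1.59 (difference -0.48, adjusted p = 0.33). Not all members stood lower, and 5 of the 15 had a positive difference. The most abundant member, the TSC22D3 gene LOC101161414, had 120.89, 139.12 and 156.71 against 148.01, 174.42 and 115.99, with overlap. Of the other SGK1 genes, LOC101169880 had 0.67, 1.09 and 1.11 against 0.96, 1.3 and 1.69. The gene sgk1 had 24.79, 22.78 and 24.45 against 21.02, 20.69 and 22.78. The list also holds per1, described above, so it is not separate from the clock lists.

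**Figure D5:**
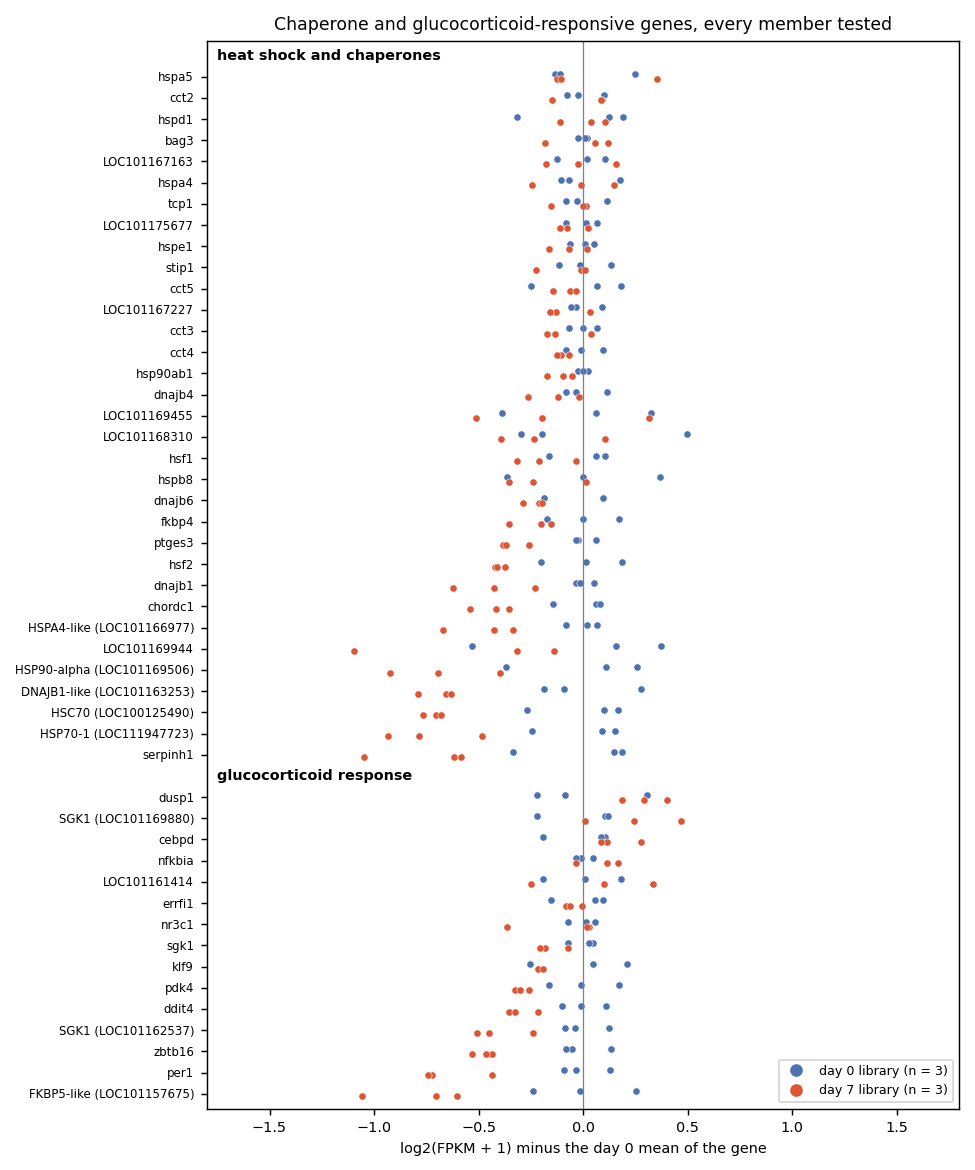
Every tested chaperone and glucocorticoid-responsive gene, with log2(FPKM + 1) of each library minus the gene's day 0 mean (horizontal); blue points are the 3 day 0 and orange the 3 day 7 libraries. Most chaperone genes sit to the left of 0 at day 7, and none of these genes was called.

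Immediate early genes, which respond to neuronal activity within minutes, had 11 of 16 positive differences, against 50.6% of all genes. Their median was 0.14, with 0 calls. The gene egr1 had 23.42, 25.93 and 32.17 FPKM at day 0 and 35.17, 42.44 and 41.11 at day 7 (difference 0.53, adjusted p = 0.189). The related LOC101160576 had 1.57, 2.06 and 3.19 against 5.25, 5.52 and 6.02 (difference 1.04, adjusted p = 0.157). In each all day 7 libraries were above day 0, but within the range of the later days. The c-Fos gene LOC101165186 stood the other way without overlap, at 12.94, 11.41 and 11.92 against 8.58, 10.29 and 11.17 (difference -0.25, adjusted p = 0.514).

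In the thyroid axis, which conveys day length to the reproductive axis in birds and mammals, 6 of 12 differences were positive (median -0.03) and none was called. The gene trh, for thyrotropin-releasing hormone, had 20.03, 18.16 and 30.01 FPKM at day 0 and 40.55, 33.46 and 31.95 at day 7 (difference 0.64, adjusted p = 0.261). The thyrotropin receptor gene LOC101170361 had 3.05, 4.07 and 2.66 against 5.13, 4.19 and 6.93 (difference 0.58, adjusted p = 0.239). In each gene day 7 lay inside the later range, and the days did not overlap. Among 31 neuropeptide genes the median was 0.03 and none was called, and the predicted gene BGI_novel_G000226, described as neuromedin-B, had 3.26, 2.87 and 2.45 FPKM against 0.34, 0.65 and 0.67 (difference -1.32, adjusted p = 0.121). Of 2 cold-inducible RNA-binding genes, cirbp had 1274.69, 1152.9 and 1195.76 against 1396.65, 1352.22 and 1398.14 (difference 0.20, adjusted p = 0.58). The 10 tested deep-brain opsin genes had a median of 0.07 and 0 calls.

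No translation factor or ribosomal protein gene was called. The 45 translation factor genes had a median of 0.02, and eif4a2, an RNA helicase of initiation, had 74.09, 68.94 and 77.79 FPKM at day 0 and 58.50, 55.62 and 51.22 at day 7. These day 7 values were the lowest of all libraries, with a difference of -0.41 (SE 0.07) and an adjusted p of 0.0583. Of 76 cytosolic ribosomal protein genes 68 had a negative difference (median -0.10), and that median was 0.00 after quantile normalization. At an unadjusted p under 0.05, 8 were lower and 0 higher, and 12 were lower and 0 higher without overlap, against the 4.43% and 8.24% of all genes given above for the lower side. Of the other genes next in line by p, afdn, for a junction protein, had 34.59, 34.59 and 36.22 FPKM against 43.99, 46.54 and 43.74 (difference 0.34, adjusted p = 0.0777).

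Markers of the tissue were present on both days. Of 9 tested pituitary hormone genes none was called, with a median of -0.11 and a summed level of 3014.08 to 5272.14 FPKM at day 0 and 1760.98 to 6045.8 at day 7. Prolactin (LOC101172582) had 2017.1, 1123.97 and 1222.03 FPKM at day 0 and 712.28, 640.65 and 814.91 at day 7 (difference -0.96, SE 1.26, adjusted p = 0.872). Somatolactin (LOC100049402), a related pituitary hormone of fish, had 259.75, 290.33 and 370.01 against 86.64, 217.19 and 151.64 (difference -1.09, SE 0.68, adjusted p = 0.669). Somatotropin (LOC101171460), the growth hormone, had 798.45, 1572.8 and 357.18 against 4305.95, 148.1 and 556.01. The follicle-stimulating hormone gene fshb had 61.69, 74.63 and 38.91 against 83.19, 99.67 and 163.66 (difference 0.96, SE 0.62, adjusted p = 0.68). Without overlap, prolactin and somatolactin were lower and fshb higher at day 7, somatotropin overlapped, and their spread over the 20 libraries was wide. The SE values draw on all 20 libraries and are not the spread of days 0 and 7 alone. They include day 60 replicate 1, where prolactin stood at 4.79 FPKM. Prolactin was called in 0 of 20 runs with 1 library left out. Summed hypothalamus markers were 601.74 to 649.3 FPKM against 569.02 to 659.03, and summed telencephalon markers 41.72 to 53.59 against 35.47 to 48.56. Of 4 telencephalon markers, 2 had a positive and 2 a negative difference. Among the negative ones, eomes had 7.28, 15.13 and 10.41 FPKM against 1.96, 7.54 and 1.85, with overlap. Whether the dissected regions differed between libraries was not tested. In this mixed tissue, fewer cells of a type and less RNA per cell cannot be told apart.

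Among markers of other cells, erythrocyte markers had a summed level of 402.77 to 1161.82 FPKM at day 0 and 180.24 to 539.39 at day 7, with 4 of 5 tested markers negative (median -0.55) and 2 of the 8 matched at 0 in all 6 libraries. Microglia and leukocyte markers summed to 211.35 to 354.82 against 256.69 to 294.98, with 4 of 6 negative (median -0.34, and 0.04 with a mean of at least 5 FPKM). Oligodendrocyte markers summed to 2872.67 to 3317.6 against 2068.93 to 2670.32, without overlap, with 8 of 8 negative (median -0.21) and 1 of the 12 matched at 0 in all 6 libraries. The myelin basic protein genes LOC101159204 (928.63, 708.99 and 803.45 against 523.26, 548.2 and 684.84) and LOC101173447 (1338.37, 1347.03 and 1358.95 against 1240.49, 1263.91 and 635.74) were the most abundant of them. Radial glia and astrocyte markers (median -0.07 over 6), endothelium markers (-0.14 over 6) and ependyma markers (0.03 over 2) had no call, nor had skeletal muscle markers (-0.23 over 2) or pigment cell markers (-0.00 over 3). Only 1 of 9 retina and pineal markers was tested, and aanat2 and rhodopsin genes were under the mean of 1 FPKM. The part of these markers in the clock and chaperone differences was not tested.

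Day 7 was also set against the later days. This comparison shares the day 7 samples with the one above, so its values are set beside it and are no separate evidence. Against the mean of days 30 to 150, 14 genes were higher at day 7 (0.0878%) and 13 lower (0.0815%). In this comparison NR1D1 differed by 0.86 (adjusted p = 0.00329), ARNTL2 by 0.60 (0.0287), AUTS2 by 0.69 (0.000509), dot1l by 0.71 (0.00101), KDM6B by 0.90 (0.000509) and LOC101161642 by 0.76 (0.00302), and all of them were called. So were jarid2 (1.42, adjusted p = 0.0287), kdm7a (0.95, adjusted p = 0.0448) and afdn (0.26, adjusted p = 0.0448) on the higher side. On the lower side eif4a2 (-0.41, adjusted p = 0.0048) and the FKBP5-like gene (-0.86, adjusted p = 0.0048) were called. By contrast trmu (0.16, adjusted p = 0.386), MAPKBP1 (0.20, adjusted p = 0.231) and BOK (-0.30, adjusted p = 0.133) were not. Day 0 against the later days gave -0.41 for trmu, -0.28 for MAPKBP1 and 0.29 for BOK. Some calls at day 7 were not particular to day 7. The neuropeptide B gene npb differed from the later days by -1.64 at day 7 and -1.67 at day 0 (adjusted p = 0.0212 and 0.0667). The peptide YY-like gene LOC101160582 differed by -1.96 and -2.35 (adjusted p = 0.0335 and 0.0645).

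Day 0 against the mean of days 30 to 150 gave 0 calls with limma, while 1339 genes (8.4%) had an unadjusted p under 0.05. For the clock genes that comparison gave -0.30 for NR1D1 and -0.16 for ARNTL2, 0.13 for per1 and 0.33 for LOC101159817, and 0.20 and 0.12 for the NR1D2 genes LOC101163230 and LOC101156434. Day 7 against the later days gave -0.50 for per1 (adjusted p = 0.164), -0.56 for LOC101159817 (adjusted p = 0.208), and -0.25 (adjusted p = 0.239) and -0.69 (adjusted p = 0.126) for these NR1D2 genes. For trh the values were -0.65 at day 0 and -0.01 at day 7. The 27 calls of day 7 against the later days became 7, 8 and 7 when day 7 replicates 1, 2 and 3 were left out in turn. They became 16 when day 0 replicate 1 was left out, 13 for day 90 replicate 1 and 16 for day 150 replicate 2.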

How the data were processed

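RNA was measured in 20 samples grouped by the day in the labels. The authors deposited 1 table of FPKM values with 2 decimals, per the file headers. Libraries were strand-specific and poly-A selected, per the labels' protocols. Per the submitters' processing notes the tools were RSEM (1.2.12) and Bowtie2 (2.2.5), and the genome build is not given in the sources used here. RSEM divides reads among similar transcripts, so paralog values carry that uncertainty. Depth is unknown, so no counting interval is given.

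Of 22615 genes, 21722 identifiers matched RefSeq (ASM223467v1), used for names only. Of 15947 tested genes, 8822 had a symbol, 6601 a locus number and 524 were predicted genes. limma (3.58.1) in R (4.3.3) fitted log2(FPKM + 1), which understates changes of low genes, with 1 mean per day, a trended prior and 13 residual degrees of freedom. The median residual SD was 0.16. Tests were two-sided. On simulated data the day 7 test found 42% of genes raised by 0.5 log2 units, 80% of those raised by 1 and 94% of those raised by 2. It found 48% of those lowered by 0.5, with 4 false calls. The simulated noise was normal and independent between genes and libraries, without outlying libraries or other differences between days. Each of these changes was simulated in 50 genes. More genes were thus changed than were called in the real data, which eases the Benjamini-Hochberg cut-off. The rates on the real libraries may therefore differ, and may be lower. Python (3.11.15), pandas (2.3.3), numpy (2.4.6) and matplotlib (3.10.9) made tables and plots.

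The members and the 31 lists were chosen with earlier results of these data known, and list patterns were edited with the table in view, the last time to take in genes known by orthology alone. All called genes were named. Further names were picked from the next 10 each way without overlap, the clock genes and up to 4 per list by p. Many of those candidates are not named here. A few more were named after their values were seen. Any 2 of the 6 libraries differed in at least 20985 genes, so none was a repeat deposit. Alternatives were another pseudocount (0.1), no filter, a minimum mean of 5 FPKM, other scalings, priors and sample weights, spread from days 0 and 7 only, and each library left out; 2 pairs of libraries were removed as settings chosen after seeing the data. The sources used here name no sequencing batch.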

Additional observations from a re-analysis of the deposited data

How the results depend on the processing

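Day 7 against day 0 kept its direction for every called gene in all settings run. The number of higher calls was 2 with spread from days 0 and 7 only and 5 without day 60 replicate 1 and day 150 replicate 2, which were removed together after seeing the data. The number of lower calls was 2 with a mean of at least 5 FPKM, 3 with sample weights, and 0 with a prior without a trend, with spread from days 0 and 7 only and without day 90 replicates 1 and 3 (also removed after seeing the data). With 1 library left out, higher calls ran from 1 to 8 and lower calls from 0 to 3. Against days 30 to 150, higher calls at day 7 were 35 after rescaling to the same total, 9 without a trend, 8 without day 60 replicate 1 and day 150 replicate 2 and 6 without day 90 replicates 1 and 3. Lower calls there were 7 with no filter, 8 after rescaling, 8 without a trend, 24 with sample weights and 6 without day 90 replicates 1 and 3. Left-out libraries gave 4 to 18 higher and 3 to 14 lower. For day 0 against the later days, lower calls were 1 with a pseudocount of 0.1, 2 with a mean of at least 5 FPKM, 4 with sample weights and 6 without day 60 replicate 1 and day 150 replicate 2. Left-out libraries gave 0 to 1 higher and 0 to 5 lower. The cause of these shifts was not tested. The median of the ribosomal protein list was 0.00 after quantile normalization and that of microglia markers 0.04 with a mean of at least 5 FPKM, each against a negative value otherwise. Somatotropin (LOC101171460), at -0.11 with all libraries, ran from -1.41 to 1.01 with 1 library left out, and hlf, at 0.07, from -0.01 (without day 7 replicate 1) to 0.17. No paired analysis was possible because the labels carry no replicate numbers, and those used here follow accession order. Depth is unknown, so low genes such as LOC110013550 have no stated precision.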

Other observations

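As a description, the genes whose log2(FPKM + 1) was most like that of the called clock genes over the 7 day means were listed. The means share their libraries, so no p is given. For NR1D1 (LOC101174341) the 5 most alike were a U2AF 35 kDa splicing factor gene (LOC101171784, r = 0.978), NFIL3 (LOC101175377, r = 0.976), a mucin-2 gene (LOC101163418, r = 0.973), vipas39 (r = 0.972) and the other NR1D1 gene (LOC101173939, r = 0.965). For ARNTL2 (LOC101174183) they were a complement C1q C gene (LOC101159074, r = 0.982), zbed4 and ARNTL (LOC101159313), each with r = 0.973, an extended synaptotagmin-2-like gene (LOC101155225, r = 0.969) and NFIL3 (LOC101175377, r = 0.961). For the NFIL3 gene known by orthology (LOC101161642) they were NFIL3 (LOC101175377, r = 0.971), znf276 (r = 0.968), a YY1-like repressor gene (LOC101173824, r = 0.964), a Rab-3D gene (LOC101174001, r = 0.962) and siva1 (r = 0.957). NFIL3 (LOC101175377) is in each of these lists.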
